A study of Homo sapiens with 6 samples.

Results

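The genes described here are the nuclear genes for subunits of mitochondrial complex I, taken from a list of 36 NDUF symbols and found by symbol among the 67051 gene identifiers of the count tables. All 36 symbols were matched, 32 had at least 1 count in any library, and 31 passed the filter on low counts and were tested. The cells were SH-SY5Y, a human neuroblastoma line, and the assay was PRO-seq, in which polymerases engaged in isolated nuclei extend their RNA in a run-on reaction and the new RNA is sequenced. A count is therefore a read of RNA being made and not of stored mRNA. The 3 groups were untreated cells, cells given 0.1 mM MPP+ for 0.5 h and cells given 0.1 mM MPP+ for 24 h, with 2 libraries in each. All groups were grown in high glucose medium with serum, and the labels name no vehicle for the untreated cells. Nothing in the labels tells whether replicate libraries came from separate cultures, and a p-value here reflects library-to-library spread that could be technical. As these are bulk samples, fewer cells and less RNA per cell cannot be told apart.

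Complex I oxidises NADH, passes the electrons along a chain of iron-sulfur clusters to ubiquinone and pumps protons across the inner mitochondrial membrane. Its core subunits come from both genomes: mitochondrial DNA (mtDNA) encodes the ND subunits of the membrane arm, and nuclear genes encode the core of the arm that protrudes into the matrix. The other nuclear genes encode accessory subunits that surround the core and are needed to build or stabilise it. MPP+, the active metabolite of the toxin MPTP, enters cells through monoamine transporters and inhibits this complex, so its subunit genes are those of the toxin's own target.

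Assigned counts per library were between 5983066 and 11707612. A gene at 0 counts could hold up to 3 counts in a library, which is 0.264 to 0.487 CPM. CPM is a count scaled to the size of its library, here with TMM factors. The floors cover counting error only, since molecules and PCR copies are not separated. The intervals given below for changes between groups come from the edgeR fit and also reflect spread between libraries. Of 10 markers of adrenergic neuroblastoma cells, PHOX2A had a mean of 536 CPM, GATA3 1160 CPM and DBH, which makes noradrenaline, 223 CPM. TH, which encodes tyrosine hydroxylase, was near the floor at 0.626 CPM. The 7 mesenchymal markers summed to 38.7 and 49.8 CPM in untreated libraries, 35.1 and 51.6 CPM at 0.5 h and 42.8 and 53 CPM at 24 h, so these ranges overlapped. Blood cell markers summed to at most 6.64 CPM in any library. Epithelial markers summed to between 158 and 200 CPM, most of it from EPCAM at 145 CPM, with KRT5 at 0.

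The 36 genes lie on 18 chromosomes, with 6 on chromosome 19 and 4 on chromosome 11. Their spans in GENCODE 29 (hg38) run from 2468 bp for NDUFB10 to 132953 bp for NDUFA10, with a median of 13818.5 bp. A protein-coding neighbour on the opposite strand starts within 1000 bp of 18 of the 36 (50%), against 13% of 19940 protein-coding genes. Such paired starts include NDUFB1 with CPSF2, 20 bp apart, NDUFS6 with MRPL36, 34 bp apart, and NDUFB5 with MRPL47, 36 bp apart.

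The overlap of a subunit gene's span with other gene records moved with whether it had counts. NDUFA7, NDUFA9, NDUFB8 and NDUFC2 had 0 counts in all 6 libraries. NDUFA7 (chromosome 19, 8308768 to 8321396), NDUFA9 (chromosome 12, 4649095 to 4694317) and NDUFB8 (chromosome 10, 100523740 to 100530000) are each covered over 100% of the span by other records. NDUFC2 (chromosome 11, 78068304 to 78080219) is covered over 97%, by the read-through record NDUFC2-KCTD14 and by THRSP on the opposite strand. Across the count tables, 1762 of 1800 protein-coding genes whose span is covered 100% had 0 counts, which is 97.9%, against 502 of 7151 (7.02%) with no such cover. The share at 0 was 99.4% where only genes of the opposite strand gave the full cover, and 98.8% where the span was fully covered but under 50% of the exon bases were. In these tables a gene thus kept almost no counts from stretches that it shares with another record on either strand, introns included.

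Several of the records that overlap those genes had counts. NDUFC2-KCTD14 had 50 and 82 counts in the untreated libraries, 74 and 77 at 0.5 h, and 82 and 63 at 24 h. AL133352.1, the same-strand record over NDUFB8, had 98 and 161 counts in the untreated libraries, 199 and 142 at 0.5 h, and 136 and 121 at 24 h. AC005833.1, over NDUFA9, had 11 and 18, then 34 and 28, then 30 and 35. THRSP had 0 counts in all 6 libraries, and AC005832.4, the other record over NDUFA9, at most 2 counts in a library. With nearly all fully covered genes at 0, the 0 counts of NDUFA7, NDUFA9 and NDUFB8 give no measure of their transcription. NDUFC2 keeps 354 bp, and of the 611 protein-coding genes covered over 95% to under 100%, 155 (25.4%) had 0 counts, with a median of 15 counts over the 6 libraries. Whether the overlap sets the 0 of NDUFC2 was not tested. NDUFB8 is an accessory subunit of the membrane arm, NDUFA9 binds NADPH near the quinone site, and NDUFC2 is a small membrane subunit.

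Several other members were counted over only a small part of their length. NDUFV2 is covered over 99.7% of its span, with 106 bp left, and had 49 counts in all. NDUFA11 kept 219 bp and 251 counts, and NDUFA13 kept 491 bp and 861 counts. Of the 36 spans, 12 were not covered at all, 12 in part under 50%, and 12 at 50% or more, 7 of these at 95% or more. NDUFB5, a membrane-arm subunit covered over only 0.453%, was the exception in the other direction, with 13 counts over the 6 libraries: 0 and 2 in untreated cells, 7 and 0 at 0.5 h, and 2 and 2 at 24 h. It was too low to test. The gene identifiers in the count tables are of a later release than GENCODE 29, as 0 of the 36 members carry the same identifier version, so these cover values are approximate for the release that was counted.

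**Figure D1:**
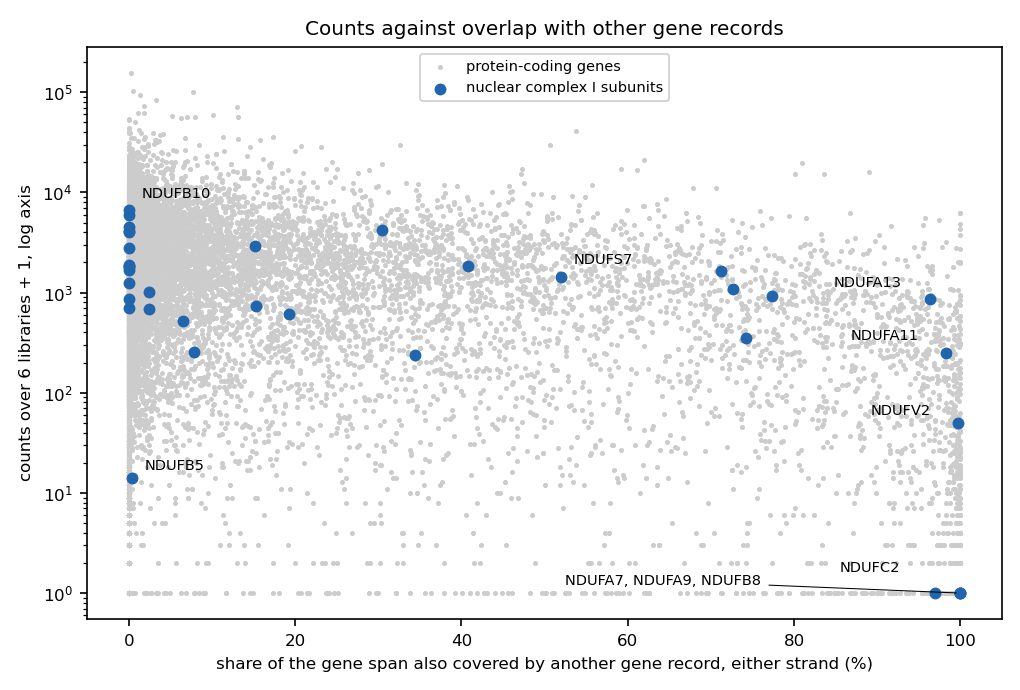
Each grey point is a protein-coding gene and each blue point a nuclear complex I subunit gene. The x axis gives the share of the gene span (%) also covered by another GENCODE 29 gene record on either strand, and the y axis the counts summed over the 6 libraries plus 1 on a log axis. NDUFA7, NDUFA9 and NDUFB8 at 100% and NDUFC2 at 97% lie at 0 counts, while NDUFV2 (49 counts) and NDUFA11 (251 counts) lie above them with a small uncovered part.

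Promoters were searched because factors such as NRF1, the ETS family protein GABPA, YY1 and SP1 are known regulators of respiratory chain genes. RefSeq promoter windows on GRCh38.p14, from 250 bases before to 50 after the start, were available for 32 of the 36 members. The full set held 35116 windows. Members' windows were limited to main chromosomes and 1 per symbol, whereas the full set was not filtered by chromosome, symbol or gene type. The NRF1 motif GCGCANGCG was in 9 of the 32 (28.1%), against 7.52% of all windows. Those 9 were NDUFA3, NDUFA8, NDUFA9, NDUFA11, NDUFA12, NDUFAB1, NDUFB4, NDUFS6 and NDUFS7. The YY1 motif AAGATGGCG was in 5 (15.6%), against 1.75% of all windows. In all 5, NDUFA6, NDUFA7, NDUFA9, NDUFS4 and NDUFS7, the YY1 match read on the gene's strand and began 10 to 25 bases after the start. The ETS motif CCGGAAG was in 5 (15.6%) against 10.3%, the SP1 motif GGGGCGGGG in 6 (18.8%) against 15.7%, and TATAAA in 3 (9.38%) against 11.5%. Both strands were searched, and overlapping matches of 1 motif, as in NDUFB4 and NDUFA8 for NRF1, were counted as 1. The median GC content was 61.8% over the members' windows and 58.7% over all. A match is a run of letters and was not tested for binding.

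The windows below show matches of 3 of the motifs in 4 of the 5 members with a match whose windows have no base in a GENCODE 29 exon. The fifth, NDUFV2, is not shown. They are written 5′ to 3′ on the gene's strand, with the match in capitals. NDUFB4 (chr3:120596162-120596296, plus strand) holds NRF1 matches from 159 and 63 bases before the start. Another NRF1 match of NDUFB4, from 8 bases before the start, lies outside the window shown. NDUFA12 (chr12:95003790-95003828, minus strand) has 1 NRF1 match and NDUFB7 (chr19:14572069-14572105, minus strand) 1 ETS match. NDUFA10 (chr2:240025415-240025453, minus strand) has 1 SP1 match, read as its reverse complement.
NDUFB4: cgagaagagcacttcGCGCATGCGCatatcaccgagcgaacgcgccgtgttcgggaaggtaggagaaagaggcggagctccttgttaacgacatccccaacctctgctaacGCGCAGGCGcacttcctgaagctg
NDUFA12: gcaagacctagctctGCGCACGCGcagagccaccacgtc
NDUFB7: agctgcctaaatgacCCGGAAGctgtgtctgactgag
NDUFA10: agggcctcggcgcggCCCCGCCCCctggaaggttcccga

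Levels can be compared between genes only per length. For the 24 members with under 50% of the span covered, the mean CPM was divided by the uncovered kilobases, and the median was 1.93 CPM per kb. NDUFB10, a membrane-arm subunit on the intermembrane-space side, was highest at 53.1 CPM per kb, with 51.1 and 55.9 in untreated libraries, 60.4 and 53.1 at 0.5 h and 52.3 and 45.8 at 24 h. NDUFS5, also on the intermembrane-space side, followed at 10.5, with 8.11 to 13.3 over the 6 libraries, which did not overlap NDUFB10. Next came NDUFB4 at 5.94 CPM per kb (4.91 to 6.82) and NDUFB7 at 5.55 (4.88 to 6.17), whose ranges overlapped each other. NDUFB11 at 4.6 (4.11 to 5.13, overlapping both), NDUFB2 at 3.74 (3.38 to 4.05) and NDUFS8 at 3.45 (2.69 to 4.38) formed the next neighbours, and NDUFB2 and NDUFS8 did not differ beyond their spread. At the other end, the long genes NDUFA10 at 0.881 (0.813 to 0.933), NDUFS4 at 0.648 (0.613 to 0.677) and NDUFA12 at 0.522 (0.478 to 0.557) did not overlap one another. NDUFB5 was lowest at 0.0103, from 13 counts in all, and its cover in the release that was counted is not known. NDUFB10 also has the shortest span, at 2468 bp, while NDUFA10, NDUFS4 and NDUFA12 span 132953, 122708 and 106716 bp. Whether the order follows span rather than transcription was not tested. Reads near the start and in the gene body are not separated in these counts. Reads of the 2 strands are not separated either, as full cover by opposite-strand genes alone left 99.4% of such genes at 0 counts.

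**Figure D2:**
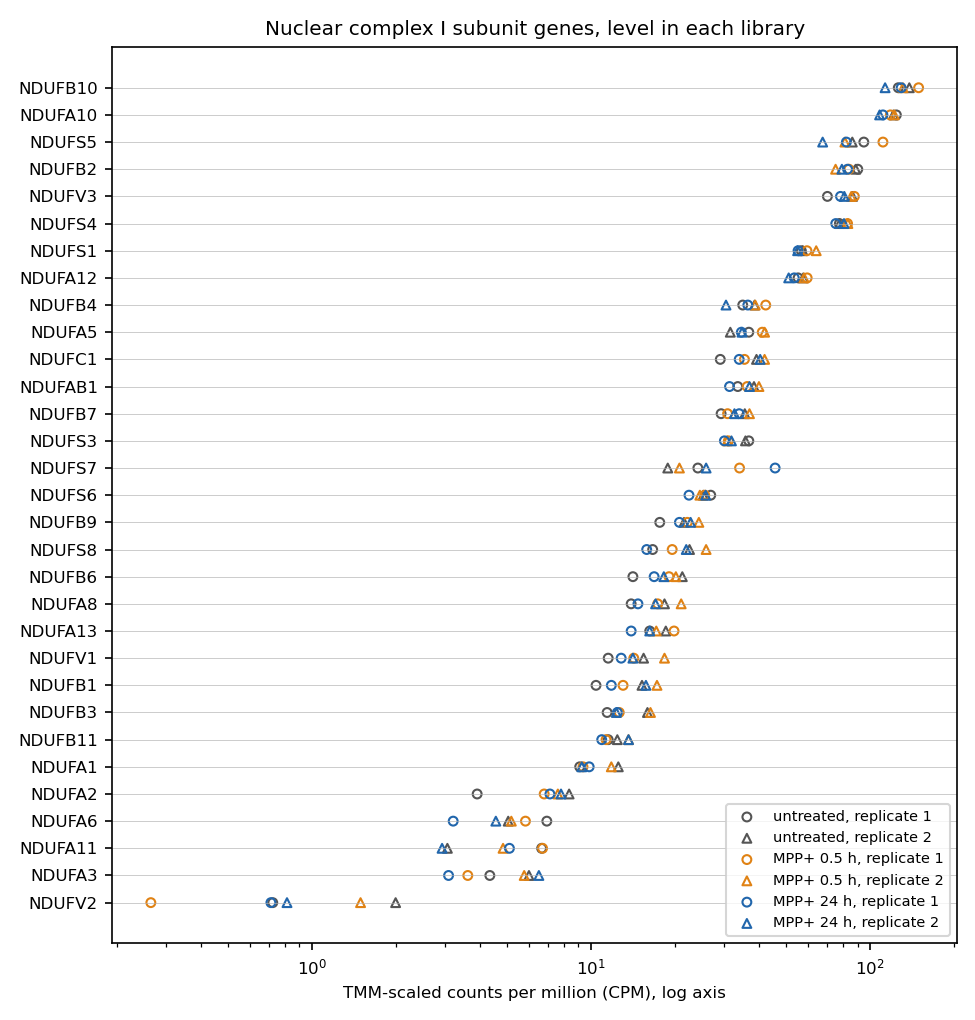
Level of each of the 31 tested members in each library, as TMM-scaled CPM on a log axis, with colour for the group and shape for the replicate. Rows are ordered by mean CPM, which is not corrected for gene length, from NDUFB10 at 131 CPM to NDUFV2 at 0.999 CPM.

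The summed share of the nuclear subunit genes stayed close to the untreated range at both times. Their share of assigned counts was 0.108% and 0.119% in the untreated libraries, 0.117% and 0.118% at 0.5 h, and 0.108% and 0.111% at 24 h. The group means were 0.114% ± 0.00792 (SD, n = 2), 0.118% ± 0.000694 and 0.109% ± 0.00216. Each treated mean thus differed from the untreated mean by less than the untreated SD. The treated groups did not overlap each other, as both 24 h libraries lay below both 0.5 h libraries. The 7 mtDNA genes for the ND subunits of the same complex stood at 50 and 54.8 counts per 100 nuclear subunit counts in the untreated libraries. They stood at 9.32 and 13 at 0.5 h, and at 12.4 and 12.4 at 24 h, so that neither treated group overlapped the untreated one. All 7 mtDNA genes passed the test as lower at both times, with log2 fold changes from -2.34 (MT-ND4L) to -2.04 (MT-ND2) at 0.5 h and from -2.33 (MT-ND5) to -1.91 (MT-ND6) at 24 h (edgeR's quasi-likelihood test, highest adjusted p of 0.0121 and 0.0355, both for MT-ND4L). With any 1 library left out, 4 to 7 of them passed at 0.5 h and 3 or 4 at 24 h: without 0.5 h replicate 1 MT-ND3, MT-ND4L and MT-ND6 did not, and without 24 h replicate 1 neither they nor MT-ND1 did. MT-ND1 had 124 and 142 CPM in the untreated libraries, 23.9 and 38.2 CPM at 0.5 h and 33.6 and 34.6 CPM at 24 h.

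**Figure D3:**
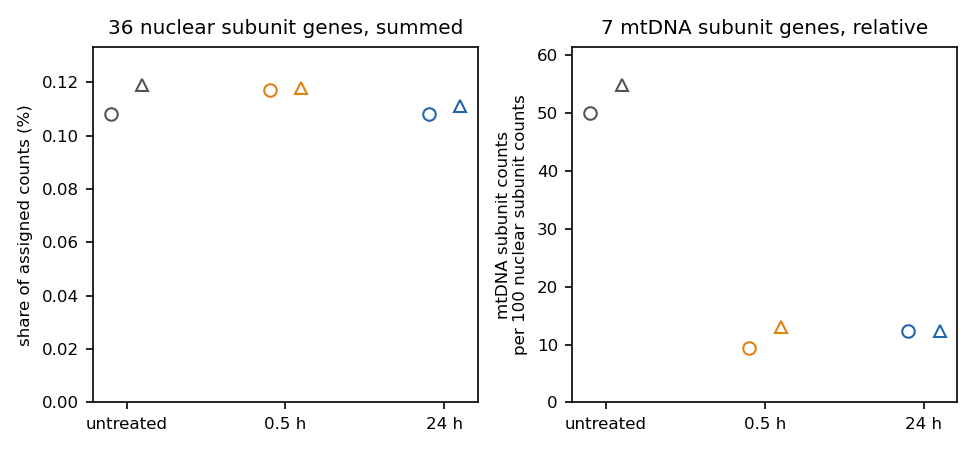
Left, counts on the 36 nuclear subunit genes as a share of assigned counts (%), and right, counts on the 7 mtDNA subunit genes per 100 counts on the nuclear ones, for each library (circle, replicate 1; triangle, replicate 2). The nuclear share runs from 0.108% to 0.119% over the 6 libraries, while the ratio is 50 and 54.8 in untreated libraries and at most 13 in treated ones.

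After 0.5 h of MPP+, 0 of the 31 tested subunit genes passed the test in either direction at an adjusted p under 0.05 (edgeR's quasi-likelihood test, Benjamini-Hochberg over 23133 genes). Over all genes, 0% were called higher and 0.0735% lower at this threshold. DESeq2 called 0 members as well. At an unadjusted p under 0.05, 1 member was higher and 0 lower, against 1.05% and 1.41% of all genes. Of the members, 23 lay above 0 and 8 below, against 52.1% and 47.9% of all genes, with a median log2 fold change of 0.091 against 0.008. The 2 groups did not overlap for 6 members that were higher and 2 that were lower, against 12.9% and 14.4% of all genes. The side of 0 rested on 1 library: without untreated replicate 1, 14 members lay above 0 and 17 below, with a median of -0.001.

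Among the 6 nuclear core subunits the median at 0.5 h was 0.155. NDUFV1, which binds NADH and the flavin, had 11.5 and 15.4 CPM in untreated cells, 14.2 and 18.3 CPM at 0.5 h, and 12.8 and 14.1 CPM at 24 h. These groups overlapped, and the log2 fold change at 0.5 h was 0.26 (95% interval -0.22 to 0.73). NDUFS1, the largest subunit and a carrier of iron-sulfur clusters, had 56.6 and 57.3 CPM, then 59.3 and 64 CPM, then 55.1 and 54.9 CPM. Its 0.5 h libraries lay above and its 24 h libraries below both untreated ones, with log2 fold changes of 0.11 ± 0.10 (SE) and -0.05 that did not pass. NDUFS3, a core subunit of the module that reduces ubiquinone, had 36.7 and 35.7 CPM, then 31 and 30.7 CPM, then 30 and 31.8 CPM. Both treated groups lay below the untreated one, at -0.23 ± 0.12 (adjusted p = 1) after 0.5 h and -0.23 ± 0.12 (adjusted p = 0.694) after 24 h. Of its span, 71.2% is shared with other records, so the counts come from the rest.

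NDUFS8, which carries iron-sulfur clusters close to the quinone site, had 16.6 and 22.5 CPM in untreated cells, 19.5 and 25.8 CPM at 0.5 h and 15.8 and 21.9 CPM at 24 h, and all groups overlapped. Its log2 fold changes were 0.20 and -0.07. NDUFV2, the partner of NDUFV1, rested on 5 and 17 counts in untreated cells, 3 and 13 at 0.5 h and 6 and 5 at 24 h. Its interval at 0.5 h ran from -2.38 to 0.80, so a change of 2-fold was not detectable at this depth.

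NDUFS7 (ENSG00000115286.20, chromosome 19, 1383527 to 1395589, plus strand) encodes the subunit that carries the last iron-sulfur cluster before ubiquinone. It had 24.1 and 18.8 CPM in untreated cells, 34 and 20.7 CPM at 0.5 h, and 45.6 and 25.8 CPM at 24 h. Both 24 h libraries lay above both untreated ones, but the 2 libraries of each treated group were further apart than the untreated pair. The log2 fold change at 24 h was 0.76 ± 0.30 (95% interval 0.08 to 1.43, unadjusted p = 0.0317, adjusted p = 0.602), which was the smallest p of the members at that time and did not pass. It passed in 2 of the alternative fits, of which the one without the filter on low counts gave 0.76 (adjusted p = 0.00547). Without 24 h replicate 1 the log2 fold change was 0.27 (adjusted p = 0.957). Records on the opposite strand cover 52% of the span. Of these, AC005329.1 had 8.06 and 9.35 CPM in untreated cells, 5.8 and 7.57 CPM at 0.5 h and 6.61 and 9.87 CPM at 24 h, which overlapped between groups. The strand used in counting was not given. Of 870 protein-coding genes fully covered by opposite-strand genes only, 865 had 0 counts, so reads were not kept apart by strand. The counts of NDUFS7 and of the other members may therefore include antisense reads, whose share was not tested.

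After 24 h, 0 of the 31 members passed at an adjusted p under 0.05 in the edgeR fit, where 0% of all genes were called higher and 0.0692% lower, and DESeq2 also called 0. At an unadjusted p under 0.05, 1 member was higher (NDUFS7) and 0 lower, against 4.01% and 4.09% of all genes. Of the members, 10 lay above 0 and 21 below, against 50.4% and 49.6%, with a median of -0.084 against 0.002. For 1 member the 24 h group lay wholly above the untreated group and for 7 wholly below, against 18.8% and 18.5% of all genes. The sign of the median depended on single libraries: it was 0.052 without untreated replicate 2 and 0.009 without 24 h replicate 1.

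The NDUFA genes encode accessory subunits of both arms, and of the 12 listed 10 were tested. Their median log2 fold change was 0.075 at 0.5 h and -0.166 at 24 h, with 0 called. NDUFA6, a LYR-motif protein that holds the acyl carrier NDUFAB1 on the matrix arm, had 6.93 and 5.04 CPM in untreated cells, 5.81 and 5.17 CPM at 0.5 h and 3.2 and 4.55 CPM at 24 h. Both 24 h libraries were below all other libraries, with a log2 fold change of -0.64 ± 0.29 (95% interval -1.30 to 0.02, adjusted p = 0.624) that did not pass. NDUFA10, a membrane-arm subunit related to nucleoside kinases, had 124 and 121 CPM, then 118 and 122 CPM, then 111 and 108 CPM. The 24 h libraries again lay below the others, at -0.17 ± 0.09 (adjusted p = 0.710).

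NDUFA5, a matrix-arm subunit next to the core of the quinone module, had 36.7 and 31.5 CPM in untreated cells, 41 and 41.8 CPM at 0.5 h and 34.5 and 34.7 CPM at 24 h. The 0.5 h libraries lay above all others, and the log2 fold change was 0.28 ± 0.12 (unadjusted p = 0.0483, adjusted p = 1), the smallest p of the members at 0.5 h. NDUFA8, a cysteine-rich subunit of the intermembrane-space side, had 13.9 and 18.3 CPM, then 17.3 and 21 CPM, then 14.7 and 17 CPM, with overlap. NDUFA13, also known as GRIM-19 and implicated in cell death, had 16.2 and 18.5 CPM, then 19.8 and 17.1 CPM, then 13.9 and 16.2 CPM. NDUFA3 and NDUFA11, small membrane-arm subunits, had 3.08 to 6.49 CPM and 2.92 to 6.69 CPM over the 6 libraries. For NDUFA11 this CPM comes from 219 bp of uncovered span and is no measure of a low level.

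**Figure D4:**
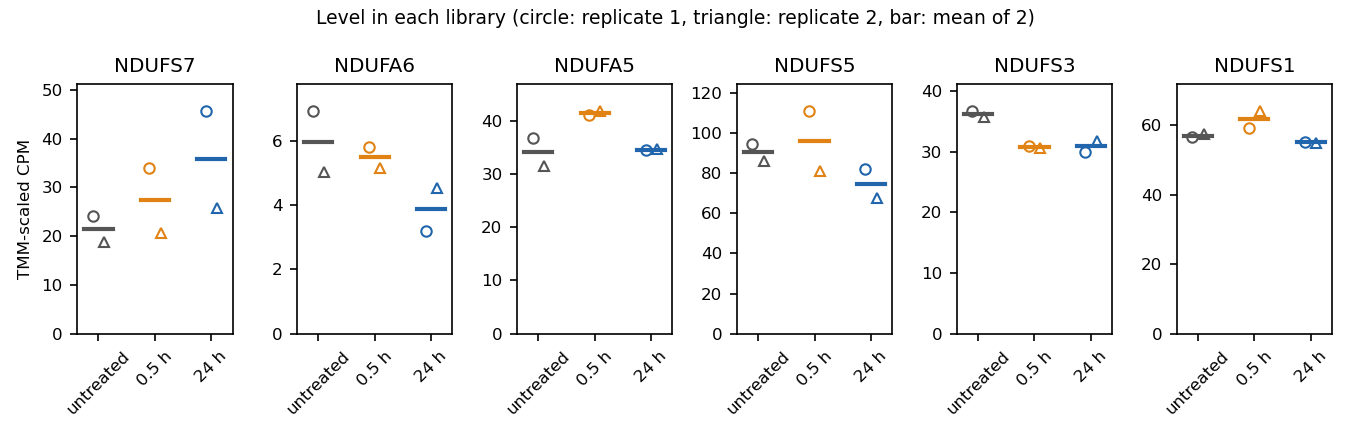
Level of 6 members in each library as TMM-scaled CPM on axes that start at 0 (circle, replicate 1; triangle, replicate 2; bar, mean of 2). The 24 h libraries of NDUFS7 are at 45.6 and 25.8 CPM, above both untreated libraries, those of NDUFA6 are below the others, and both treated groups of NDUFS3 lie below the untreated one.

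The NDUFB genes encode accessory subunits of the membrane arm, and 9 of the 11 listed were tested. Their medians were 0.086 at 0.5 h and -0.027 at 24 h, with 0 called. NDUFB10 had 126 and 138 CPM in untreated cells, 149 and 131 CPM at 0.5 h and 129 and 113 CPM at 24 h, with overlap between untreated and each treated group. NDUFB2 had 90.2 and 88.7 CPM, then 83.8 and 75.1 CPM, then 82.9 and 79.1 CPM. Both treated groups of NDUFB2 lay below the untreated one, at -0.17 ± 0.10 (adjusted p = 1) and -0.14 ± 0.10 (adjusted p = 0.766). NDUFB4 had 34.9 and 38.5 CPM, then 42.2 and 38.7 CPM, then 36.4 and 30.4 CPM. NDUFB9, a LYR-motif subunit, had 17.6 and 21.5 CPM, then 22.1 and 24.3 CPM, then 20.7 and 22.7 CPM, and its 0.5 h libraries lay above both untreated ones (0.24, adjusted p = 1).

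Of the accessory subunits with NDUFS and NDUFV names, NDUFS5 had 94.8 and 86.2 CPM in untreated cells, 111 and 81.1 CPM at 0.5 h and 82.1 and 67.5 CPM at 24 h. Its 24 h libraries lay below the untreated ones, at -0.27 ± 0.16 (adjusted p = 0.723). NDUFS4, which helps hold the NADH-binding module in place, had 77.5 and 77.6 CPM, then 82.9 and 83.1 CPM, then 75.2 and 80.5 CPM. NDUFV3, a small subunit beside that module, had 70.2 and 86.4 CPM, then 87.7 and 85.5 CPM, then 78.2 and 80.7 CPM, with overlap. NDUFC1, a small membrane subunit, had log2 fold changes of 0.17 and 0.11, and NDUFAB1, the mitochondrial acyl carrier protein, 0.08 and -0.08, with 0 called.

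The direct comparison of 24 h with 0.5 h of MPP+ also called 0 of the 31 members, with 0% of all genes called in either direction and 0 members called by DESeq2. The members lay mostly on the lower side: 26 were below 0 and 5 above, against 49.5% and 50.5% of all genes, and the median log2 fold change was -0.14 against 0.003. For 14 of the 31 (45.2%) both 24 h libraries were below both 0.5 h libraries and for 0 they were above, against 19% and 19.4% of all genes. The median stayed below 0 when any 1 library of the comparison was left out, from -0.193 to -0.093, and under the 2 other scalings, at -0.142 and -0.107. For scale, the members' median log2 CPM had an SD between replicates of 0.0921, pooled over the groups. At an unadjusted p under 0.05, 1 member was lower and 0 higher, against 3.62% and 2.8% of all genes. This comparison shares the 0.5 h libraries with the first one and the 24 h libraries with the second.

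NDUFS5 had the smallest p of the members between the times, with a log2 fold change of -0.36 ± 0.16 (95% interval -0.72 to -0.01, unadjusted p = 0.0471, adjusted p = 0.768). It passed in 1 alternative fit. It was -0.11 without 0.5 h replicate 1, the library at 111 CPM. The 24 h libraries lay below the 0.5 h ones for NDUFA5 (-0.26 ± 0.12, adjusted p = 0.769), NDUFB4 (-0.27 ± 0.14), NDUFA6 (-0.53 ± 0.29, adjusted p = 0.781), NDUFB10 (-0.21 ± 0.12) and NDUFA13 (-0.30 ± 0.18). These 5 include subunits of the matrix arm (NDUFA5, NDUFA6) and of the membrane arm (NDUFB4, NDUFB10). NDUFS7 stood on the other side at 0.39 ± 0.29, with overlapping groups. By role, the medians between the times were -0.133 for the core, -0.213 for NDUFA, -0.138 for NDUFB and -0.11 for the accessory NDUFS and NDUFV genes.

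The intervals show what size of change these libraries could have missed. The 95% interval of the log2 fold change lay within 2-fold either way for 27 of the 31 members at 0.5 h, 26 at 24 h and 27 between the times. It lay within 1.5-fold for 19, 19 and 16 members. The lower end of the interval was above -2 for 30, 30 and 31 members, NDUFV2 being the exception in both comparisons with untreated cells. Replicates differed most for members with few counts or little uncovered span: the log2 level of replicate 1 minus that of replicate 2 was -1.78 for NDUFV2 at 0.5 h, 1.06 for NDUFA11 and -1.05 for NDUFA2 in untreated cells, and -1.02 for NDUFA3 at 24 h. For NDUFS7 it was 0.71 at 0.5 h and 0.82 at 24 h.

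**Figure D5:**
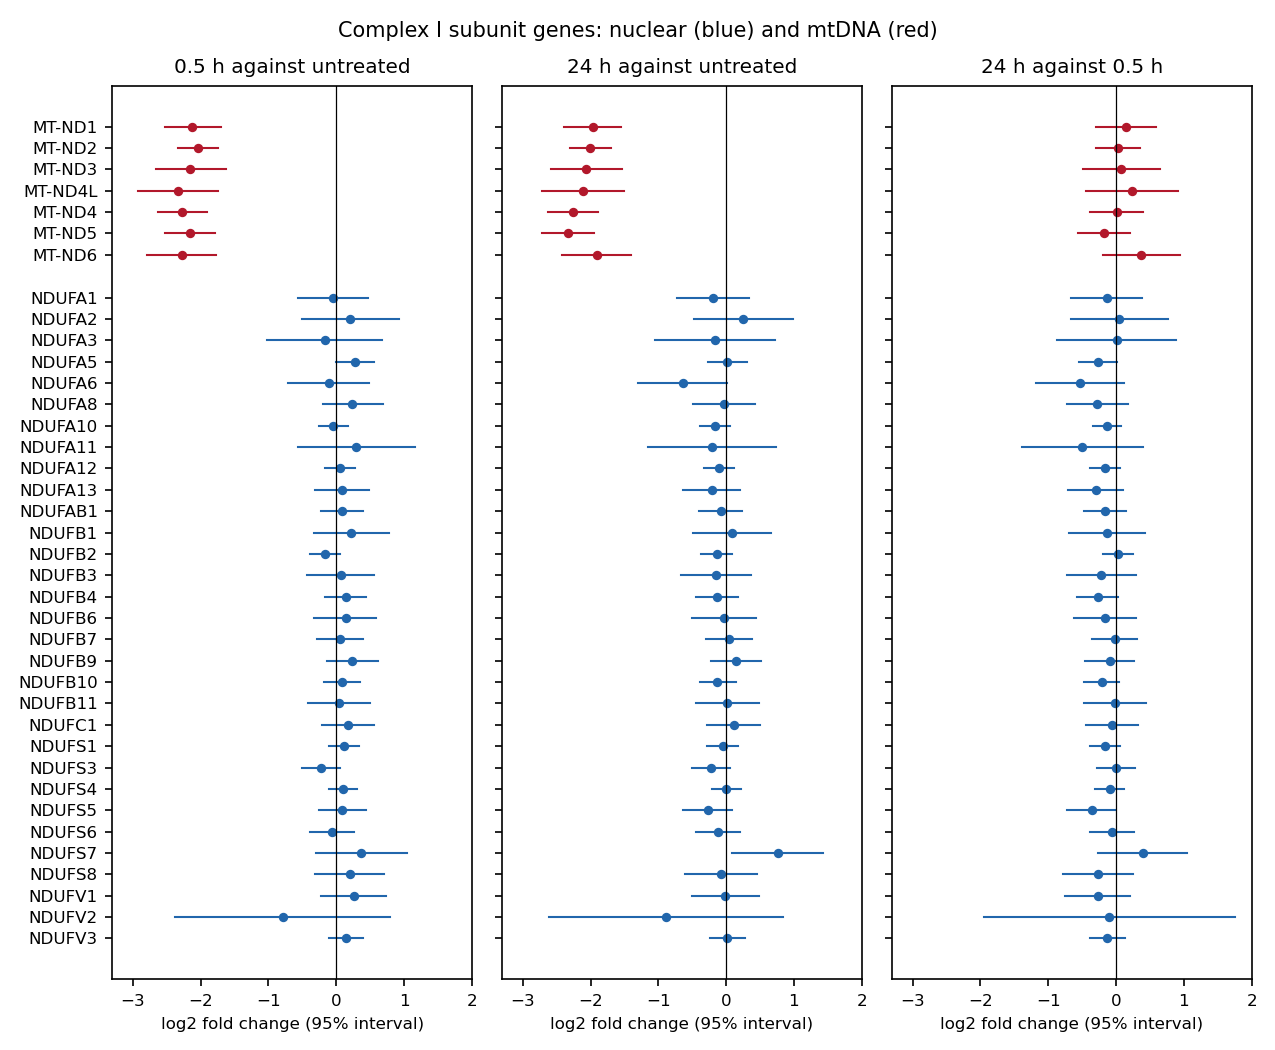
Log2 fold change with its 95% interval (edgeR) for the 7 mtDNA subunit genes (red) and the 31 tested nuclear ones (blue) in the 3 comparisons. Against untreated cells the mtDNA genes lie between -2.34 and -1.91, the nuclear ones between -0.89 and 0.76, and the widest interval belongs to NDUFV2.

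The helper proteins that build complex I showed small values too. Of 19 assembly factor genes, all were tested and 0 passed in any comparison. At 0.5 h 15 lay above 0 and 4 below with a median of 0.124, at 24 h 7 and 12 with -0.040, and between the times 4 and 15 with -0.127. DMAC1, needed for the distal membrane arm, had 32.6 and 38.8 CPM in untreated cells, 48.8 and 43.1 CPM at 0.5 h and 36.4 and 39 CPM at 24 h (0.36 at 0.5 h, unadjusted p = 0.0223, adjusted p = 1). ACAD9, an assembly factor related to acyl-CoA dehydrogenases, had 48.5 and 44.9 CPM, then 48.9 and 53.3 CPM, then 40.2 and 42.7 CPM (-0.30 between the times, unadjusted p = 0.0236, adjusted p = 0.762).

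The nuclear subunits of complexes II to V lay close to those of complex I. Of 41 listed, 7 had 0 counts in every library, 32 were tested and 0 passed. Their medians were 0.089 at 0.5 h, -0.003 at 24 h and -0.134 between the times, where 25 lay below 0 and 7 above. For 14 of the 32 the 24 h libraries were wholly below the 0.5 h ones, and for 1 wholly above, against 19% and 19.4% of all genes. COX7C, a small subunit of cytochrome c oxidase, had 20.6 and 23.7 CPM in untreated cells, 27.6 and 24.6 CPM at 0.5 h and 17.2 and 16.4 CPM at 24 h. It had a log2 fold change of -0.64 between the times (unadjusted p = 0.00269, adjusted p = 0.754). ATP5MC2, of the ATP synthase ring, had 78 and 69.8 CPM, then 78.2 and 77.9 CPM, then 65.5 and 56.8 CPM (-0.35 between the times).

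Of 9 genes for factors known to control respiratory chain genes, all were tested and 0 passed. At 24 h 8 lay below 0 and 1 above, with a median of -0.090. PPRC1, a coactivator related to PGC-1 alpha, had 127 and 93.8 CPM in untreated cells, 105 and 103 CPM at 0.5 h and 81.5 and 70 CPM at 24 h. The 24 h libraries lay below all others, at -0.54 ± 0.15 (unadjusted p = 0.00495, adjusted p = 0.522). Among 8 genes for transporters that carry MPP+ or related amines, SLC6A2, the noradrenaline transporter, had a mean of 216 CPM. SLC6A3, the dopamine transporter, was at 1.08 CPM and was not tested. The vesicular transporters SLC18A1 and SLC18A2 had means of 28.4 and 17.3 CPM, and 0 of the 7 tested genes passed.

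The authors' deposited table for untreated cells and 24 h lists 24 genes, and that for untreated cells and 0.5 h lists 17. Nuclear complex I subunits in the authors' deposited tables numbered 0 in both, whereas the 7 mtDNA subunit genes are listed. Their deposited log2 fold changes are positive, from 0.78 (MT-ND4L) to 1.27 (MT-ND4) for 0.5 h and from 0.92 (MT-ND6) to 1.76 (MT-ND5) for 24 h. The direction of these ratios is not stated. All 7 genes had lower CPM in both treated groups than in untreated cells, so positive values read as untreated over treated. The deposited values are smaller in size than the negative values of the edgeR fit.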

How the data were processed

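PRO-seq was run on 6 SH-SY5Y libraries. The deposited count tables hold raw counts per gene. The submitters' processing notes list DESeq2 2.11.40.6, featureCounts 2.0.1, deepTools 3.5.1.0.0, SAMtools 1.13, Bowtie2 2.4.2, cutadapt 1.16.5 and, as the genome build, hg38. The annotation release, strand and feature type used in counting were not given in the sources used here. Lists of changed genes deposited by the authors give log2 fold changes with standard errors, Wald scores, p-values and adjusted p-values, per the file headers.

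Symbols came from a gene name table for 60481 identifiers and from GENCODE 29 for 213, while 6357 stayed unnamed (0.038% to 0.0414% of a library's counts). After filterByExpr, 23133 genes remained. These were TMM-scaled and modelled by edgeR 4.0.16 in R 4.3.3 (quasi-likelihood, group means, all 6 libraries). Tests were two-sided F tests, Benjamini-Hochberg adjusted over all genes tested, with a threshold of 0.05. There were 3 residual degrees of freedom, and the common biological coefficient of variation was 0.113. SE is the absolute log2 fold change over the root of F. Replicates were no copies of each other: chi-square divided by its degrees of freedom was 5.18 (untreated), 8.24 (0.5 h) and 3.85 (24 h). The fit was tested on simulated counts. Alternatives were other scalings, DESeq2 1.42.0, other filters, a replicate term, the 2 groups alone and leaving out each library.

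Members and lists were chosen with earlier results of these data known. Named are the core subunits, the 6 members of smallest p in each comparison, the 3 highest and 3 lowest by CPM, every member below the filter, up to 3 genes of each other list and the mtDNA subunit genes. Members and marker genes named beyond this rule were chosen after their values were seen. Promoter sequences are from RefSeq (GRCh38.p14) and spans from GENCODE 29, with each base of a span counted as covered if another gene record of either strand includes it.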

Additional observations from a re-analysis of the deposited data

How the results depend on the processing

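Of the 36 members 5 were too low to test, 4 at 0 counts and NDUFB5 at 13, and NDUFV2 was tested on 49 counts. For the named members, 339 of 349 log2 fold changes under other settings kept their direction and side of the threshold, 7 changed sign near 0 and 3 were newly called. With 1 library left out, 178 of 204 did so, 26 changed sign and 0 were called. The sign changes under other settings were NDUFV1 at 24 h, at 0 with upper-quartile scaling and 0.01 with the replicate block, and NDUFS3 between the times. NDUFS3 was at 0 with RLE scaling, the replicate block and the 2 groups alone, and at -0.01 with DESeq2 and without the filter. The cause was not tested.

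Genes called at 0.5 h numbered 66 without the filter and 57 with the replicate block, against 17. At 24 h they numbered 30 with DESeq2, 245 without the filter and 685 with the block, against 16. Between the times they numbered 73 without the filter and 412 with the block, against 0. The replicate numbers were not taken to pair the libraries, as the labels do not say so and there are only 2. Differences between replicate 1 and 2 correlated between groups across genes at 0.29 to 0.33 over all genes and at 0.48 to 0.76 over the members (genes are not independent). With the block 1 member was called at 24 h (NDUFS7, 0.71, adjusted p = 0.00576) and 1 between the times (NDUFS5, -0.36, adjusted p = 0.0388), and without the filter 1 at 24 h (NDUFS7).

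Leaving out 1 library gave 9 to 15 called genes at 0.5 h and 8 to 13 at 24 h, with 0 members called. The members' median ran from -0.001 to 0.174 at 0.5 h and from -0.167 to 0.052 at 24 h. At 0.5 h the log2 fold change ran from -0.02 to 0.43 for NDUFS8, -0.34 to 0.13 for NDUFA6, -0.02 to 0.19 for NDUFA13, -2.35 to 0.16 for NDUFV2, -0.04 to 0.67 for NDUFS7, -0.16 to 0.29 for NDUFS5 and -0.01 to 0.17 for NDUFB10. At 24 h it ran from -0.12 to 0.17 for NDUFV3, -0.32 to 0.16 for NDUFS8, -0.20 to 0.21 for NDUFV1, -1.39 to 0.05 for NDUFV2, -0.09 to 0.13 for NDUFA5 and -0.21 to 0.18 for NDUFA8. Between the times it ran from -0.04 to 0.04 for NDUFS3, -0.97 to 1.46 for NDUFV2, -0.05 to 0.11 for NDUFB2 and -0.09 to 0.80 for NDUFS7. A lone library was assumed to vary like the other groups.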
